A study of Mus musculus with 12 samples.

Results

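The integrated stress and amino acid response is described here through 42 of the 23315 gene names in the deposited table, read in MC3T3 sc4 cells. The genes were chosen by name, with earlier results of these data known. They comprise ATF4 and the transcription factors that work with it, feedback and stress effectors, amino acid and one-carbon enzymes, amino acid transporters, and tRNA synthetases under their older symbols. MC3T3 sc4 is a mouse calvarial pre-osteoblast line, here of C57BL/6 origin and at passage 12. All cells, controls included, were cultured in osteogenic medium with ascorbic acid and β-glycerol phosphate. On each of days 6 and 1 the cells had received 5 µM GSK126 with BMP2 at 0, 10 or 50 ng/ml, or the same BMP2 doses without GSK126, the lowest being the vehicle. GSK126 inhibits EZH2, the Polycomb enzyme that methylates histone H3, and BMP2 is a bone morphogenetic protein that drives osteoblast differentiation. Each of the 12 conditions has 1 library of bulk RNA from 1 cell line, so no single condition has a replicate. In bulk RNA, fewer cells that express a gene and less of its RNA per cell cannot be told apart.

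The integrated stress response starts when 1 of several kinases (among them PERK for endoplasmic reticulum stress and GCN2 for amino acid shortage) phosphorylates the initiation factor eIF2. Most translation then slows, while translation of Atf4 mRNA increases, and the ATF4 protein pairs with C/EBP factors on promoters of genes for amino acid synthesis, amino acid import and tRNA charging. In osteoblasts ATF4 is known for its part in differentiation and in supplying amino acids for collagen. Because much of its control is translational, mRNA levels such as those measured here do not show how much ATF4 protein was present.

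Libraries held 74301112 to 113744802 counts. Of the 42 genes, 40 reached 1 CPM (counts scaled to the library total) in at least 2 libraries and were tested. Slc7a3 passed that filter only through the 3 libraries of day 6 with GSK126, and Atf3 and Slc7a11 passed only through the 6 libraries of day 6, so these genes had to differ there to be tested. Levels in CPM from here on are TMM-normalised: each library's total over the tested genes was multiplied by its TMM factor. These factors ran from 0.8127 (day 6, 50 ng/ml BMP2 alone) to 1.1137 (day 1, GSK126 alone). The labelled cell type was checked by markers: Col1a1 ranged from 18484 to 75085 CPM and Runx2 from 95.2 to 492 CPM, while all 4 adipocyte, 4 endothelial and 3 skeletal muscle markers lay at or below 0.219 CPM. Of the leukocyte markers Ptprc reached at most 0.0796 CPM and Cd14 2.91 to 5.76 CPM. Csf1r, the macrophage colony-stimulating factor receptor, had 0.467 to 1.66 CPM and passed in 2 comparisons used here: it was higher with BMP2 on day 6 (1.04 ± 0.25, log2, adjusted p = 0.022) and lower on day 6 than on day 1 (-0.41 ± 0.15, adjusted p = 0.043). With GSK126 on day 6 it was at -0.49 ± 0.23 and did not pass. Cd14 was also lower on day 6 than on day 1 (-0.59 ± 0.07, adjusted p = 0.00025). On day 6 Cd14 did not pass with BMP2 (-0.04 ± 0.11) or with GSK126 (-0.25 ± 0.11). The other leukocyte markers, Ptprc, Cd68 and Adgre1, were too low to be tested. Of the neuron markers Rbfox3 and Snap25 lay at or below 0.179 CPM while Tubb3 reached 102 CPM. The osteoblast genes moved with the treatments and between the days described next. With GSK126 on day 6, 4 of 8 were higher and 0 lower, against 14.3% and 14.0% of all genes tested. With BMP2 on day 6 all 8 were higher, against 13.3% of all genes tested. Between the days 7 of the 8 were higher on day 6 and 0 lower, against 40.5% and 37.5% of all genes tested. The largest of these rises were Bglap (10.12 ± 0.47), Ibsp (6.44 ± 0.23) and Alpl (4.12 ± 0.22), so these markers were far lower on day 1. The ribosomal precursor Rn45s took a smaller share of counts with GSK126 in all 6 matched pairs, at 14.47%, 13.49% and 13.1% on day 6 with GSK126 (0, 10 and 50 ng/ml BMP2), against 15.4%, 17.16% and 21.66% without it. The part of any of these in the results was not tested.

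The 42 genes together held 0.717%, 0.761% and 0.764% of all counts on day 6 with GSK126, against 0.392%, 0.485% and 0.465% on day 6 without it, at 0, 10 and 50 ng/ml BMP2. In the 6 libraries of day 1 the share was 0.324% to 0.355%. With Rn45s left out of the total, the shares were 0.839%, 0.88% and 0.879% on day 6 with GSK126, against 0.464%, 0.585% and 0.594% without it. The 3 libraries with GSK126 on day 6 thus stood above the other 9 on either scale.

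On the deposited per-length scale (RPKM), which allows levels of different genes to be compared, Nupr1, Atf4, Gars and Asns led the set on day 6 with GSK126, with group medians of 235, 175, 151 and 147 RPKM. The same genes led on day 6 without GSK126, at 121, 104, 95.8 and 68.3 RPKM. On day 1 Atf4 led with a median of 94.6 RPKM, while Nupr1 ranked 18. Trib3, which encodes a pseudokinase that restrains ATF4 and CHOP, ranked 19 of 42 at 50.0 RPKM on day 6 with GSK126, 36 at 8.19 RPKM on day 6 without it and 37 at 1.29 RPKM on day 1. Slc7a11, Slc7a3, Fgf21 and Stc2 were the 4 lowest genes on day 6, none above 1.31 RPKM in its group median.

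**Figure D1:**
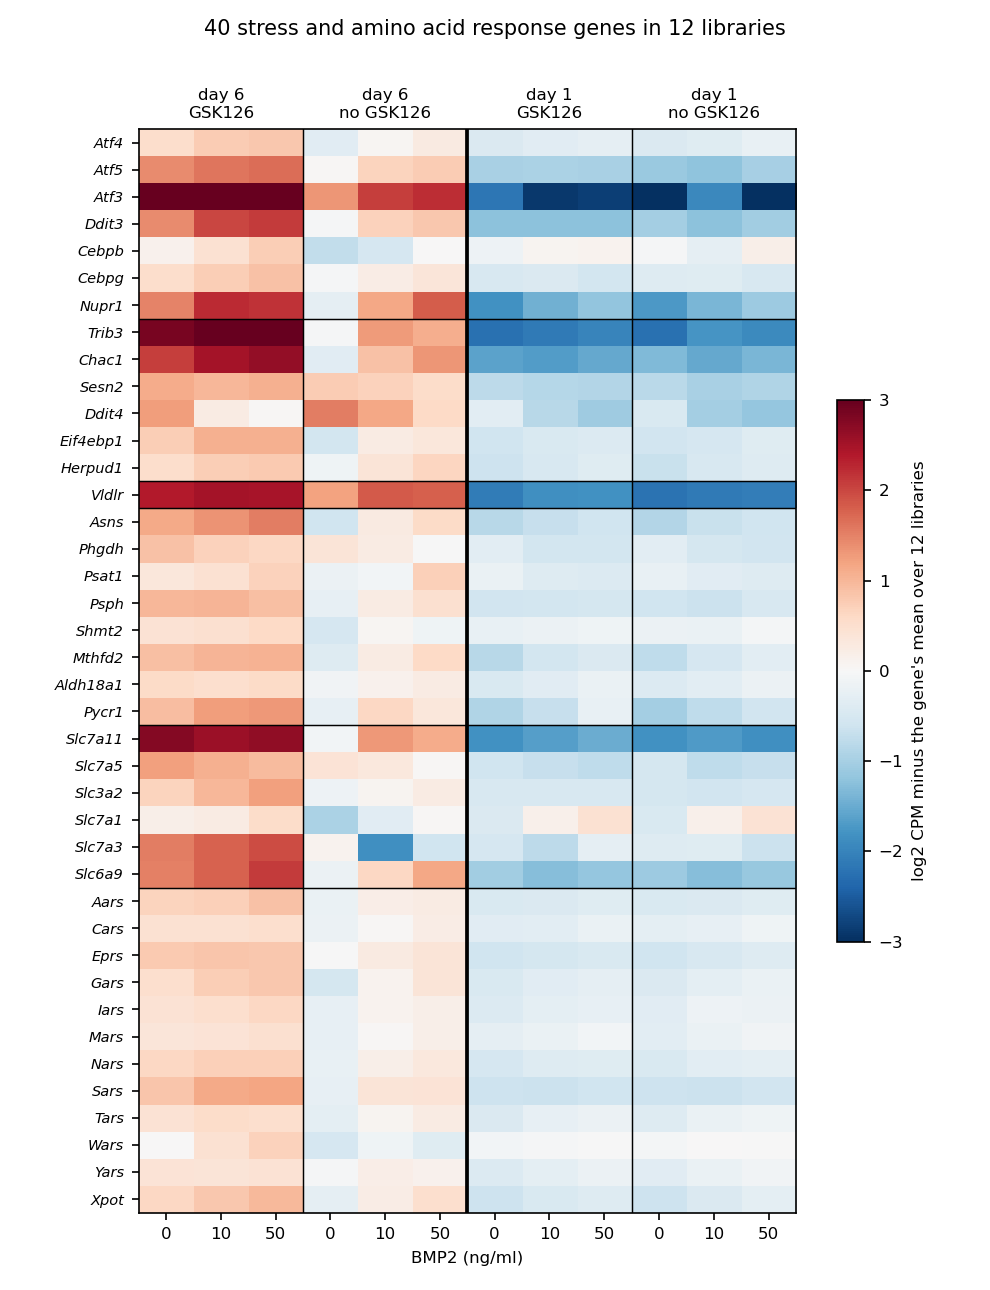
Level of the 40 tested genes (rows, grouped by role) in the 12 libraries (columns, by day, GSK126 and BMP2 dose), as log2 CPM minus the gene's mean over the libraries. Colours stop at 3 log2 units in either direction. The 3 columns of day 6 with GSK126 are the reddest for most genes, and Ddit4 is darkest at 0 ng/ml BMP2 on day 6 without GSK126.

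The first comparison asked what GSK126 changed on day 6, over the 3 BMP2 doses. Of the 40 tested genes 39 rose and 1, Ddit4, fell. Over all 12056 genes tested 28.3% were called, 14.3% higher and 14.0% lower. The median log2 fold change of the set was 0.73, against 0 over all genes tested. A gene is called here when its p from the edgeR quasi-likelihood test, adjusted by Benjamini-Hochberg over all genes, is under 0.05. Log2 fold changes are given ± their standard error, from a fit to all 12 libraries. In 36 of the 40 genes every day 6 library with GSK126 lay above every one without it, which held for 10.4% of all genes. The 4 exceptions were Nupr1, Ddit4, Herpud1 and Psat1. Slc7a3 is among the 39 and the 36, but it passed the filter only through day 6 libraries with GSK126. Its rise was thus needed for it to be tested.

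All 7 transcription factor genes rose. Atf4 itself had 343, 406 and 417 CPM with GSK126 at 0, 10 and 50 ng/ml BMP2, against 189.5, 250.02 and 288 CPM without it. The groups did not overlap, and the fitted change was 0.70 ± 0.06 on the log2 scale (adjusted p = 0.00057). Ddit3 encodes CHOP, a factor tied to prolonged stress. It had 61.6, 93.2 and 99.8 CPM with GSK126, against 22.7, 37.6 and 40.5 CPM without it, a log2 change of 1.35 ± 0.06 (adjusted p = 3.4e-05). Atf3, an immediate stress factor, had 17.9, 18.1 and 15.8 CPM with GSK126, against 3.32, 5.61 and 6.12 CPM without it. Its log2 change was 1.82 ± 0.27 (adjusted p = 0.0036), and in contrast to Ddit3 it showed no step with BMP2 dose among the libraries with GSK126. Atf5, a relative of ATF4, rose by 1.07 ± 0.10 and Cebpg, which encodes an ATF4 partner, by 0.54 ± 0.04. Cebpb, another partner, had 19.1, 24.1 and 28.9 CPM with GSK126, against 10.5, 12.2 and 17.5 CPM without it, a log2 change of 0.85 ± 0.10. Nupr1, a small stress-induced nuclear protein gene, rose by 1.07 ± 0.23, but its groups overlapped. The fit without either library of day 6 at 10 ng/ml no longer called Nupr1.

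Among 6 feedback and stress effectors 5 rose. Trib3 had 90.2, 135 and 159 CPM with GSK126, against 12.4, 30.3 and 26.9 CPM without it. Its log2 change of 2.52 ± 0.14 (adjusted p = 6.1e-05) was the highest of the 40. Chac1, whose product breaks down glutathione, had 49.2, 65.6 and 72.2 CPM with GSK126, against 9.13, 21.5 and 29.0 CPM without it, a log2 change of 1.78 ± 0.19 (adjusted p = 0.001). The gap between the groups was widest at 0 ng/ml BMP2 for both genes, 7.30-fold for Trib3 and 5.39-fold for Chac1. Sesn2 encodes a leucine sensor that restrains mTORC1. It had 78.6, 72.7 and 76.2 CPM with GSK126, against 61.7, 59.0 and 53.03 CPM without it, and rose by 0.39 ± 0.05. Eif4ebp1, encoding the translation repressor 4E-BP1, rose by 0.94 ± 0.10, and Herpud1, of endoplasmic reticulum protein disposal, by 0.39 ± 0.09. The Herpud1 call was lost without either library of day 6 at 10 ng/ml.

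Ddit4, which encodes REDD1, another mTORC1 inhibitor that also responds to low oxygen and glucocorticoids, went the other way. It had 90.1, 45.1 and 38.7 CPM with GSK126, against 110.0, 85.1 and 57.0 CPM without it. It was lower with GSK126 at each dose, although the groups overlapped because BMP2 lowered it as well. The log2 change was -0.59 ± 0.11 (adjusted p = 0.008).

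Of the secreted factors and receptor, Vldlr, a lipoprotein receptor gene, had 389, 422 and 414 CPM with GSK126, against 174, 267 and 261 CPM without it, and rose by 0.83 ± 0.10 (adjusted p = 0.0018). Fgf21, a stress-induced hormone gene, and Stc2, a secreted stress factor gene, were too low to test. Fgf21 summed to 52 read pairs over the 3 libraries of day 6 with GSK126, against 14 over the 3 without it. Stc2 summed to 2 read pairs on day 6 with GSK126 and to 0 on day 6 without it. Both counts for Stc2 lie under 3 pairs, the limit that a count of 0 allows, so no difference was detectable at this depth.

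All 8 enzyme genes rose. Asns, which encodes asparagine synthetase, had 326, 373 and 428 CPM with GSK126, against 98.3, 178 and 219 CPM without it, a log2 change of 1.25 ± 0.14 (adjusted p = 0.0011). The genes of serine synthesis rose less. Phgdh, the entry enzyme, had 221, 195 and 186 CPM with GSK126, against 156, 143 and 119 CPM without it, a log2 change of 0.53 ± 0.05. Psat1, the next step, had 246, 265 and 313 CPM with GSK126, against 172, 182 and 314 CPM without it. The Psat1 levels at 50 ng/ml were nearly equal, and the fitted 0.35 ± 0.10 (adjusted p = 0.044) was called in only 10 of 21 alternative fits. It was lost without any 1 of the 6 libraries of day 1 and without the day 6 libraries at 0 or 10 ng/ml. Psph, the last step of serine synthesis, rose by 0.81 ± 0.14. The mitochondrial one-carbon genes Mthfd2 and Shmt2 rose by 0.84 ± 0.14 and 0.69 ± 0.09. The proline synthesis genes Pycr1 and Aldh18a1 rose by 0.92 ± 0.11 and 0.46 ± 0.07.

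All 6 transporter genes rose. Slc7a11, the cystine importer that feeds glutathione synthesis, had 17.7, 15.5 and 16.7 CPM with GSK126, against 2.499, 6.47 and 5.72 CPM without it. With GSK126 its level was nearly the same at every BMP2 dose, and the log2 change was 1.85 ± 0.28 (adjusted p = 0.0038). Slc6a9, a glycine transporter gene, had 74.9, 89.9 and 113 CPM with GSK126, against 23.6, 41.0 and 58.8 CPM without it, and rose by 1.25 ± 0.13. Slc7a3, a cationic amino acid transporter gene, had 2.45, 2.89 and 3.29 CPM with GSK126, against 0.905, 0.236 and 0.554 CPM without it. Its log2 change was 2.42 ± 0.39 (adjusted p = 0.0049), in a gene at the edge of the filter. Since it passed that filter only through these libraries with GSK126, its p-value is no independent evidence of a rise. Slc7a5 and Slc3a2, whose products form the large neutral amino acid exchanger, rose by 0.82 ± 0.05 and 0.90 ± 0.04, and the arginine importer gene Slc7a1 by 0.75 ± 0.11.

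All 12 genes of tRNA charging and export rose, within a narrower range of 0.31 to 0.87 on the log2 scale (median 0.60). Aars, alanyl-tRNA synthetase, had 394, 408 and 456 CPM with GSK126, against 218, 285 and 296 CPM without it, a log2 change of 0.67 ± 0.07. Wars, tryptophanyl-tRNA synthetase, had 52.1, 71.0 and 84.2 CPM with GSK126, against 36.9, 47.5 and 40.5 CPM without it, a log2 change of 0.71 ± 0.10. Its gap between the groups was widest at 50 ng/ml, at 2.08-fold. Sars had the highest change (0.87 ± 0.07) and Yars the lowest (0.31 ± 0.05), and the tRNA export factor gene Xpot rose by 0.65 ± 0.08. A fit to the 6 libraries of day 6 alone, with 2 residual degrees of freedom, called 28 of 40 genes higher and 0 lower. It called 8.1% of all genes, against 28.3% in the fit to 12 libraries. The genes lost there were Aldh18a1, Cars, Ddit4, Herpud1, Mars, Mthfd2, Nupr1, Psat1, Psph, Sesn2, Tars and Yars.

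**Figure D2:**
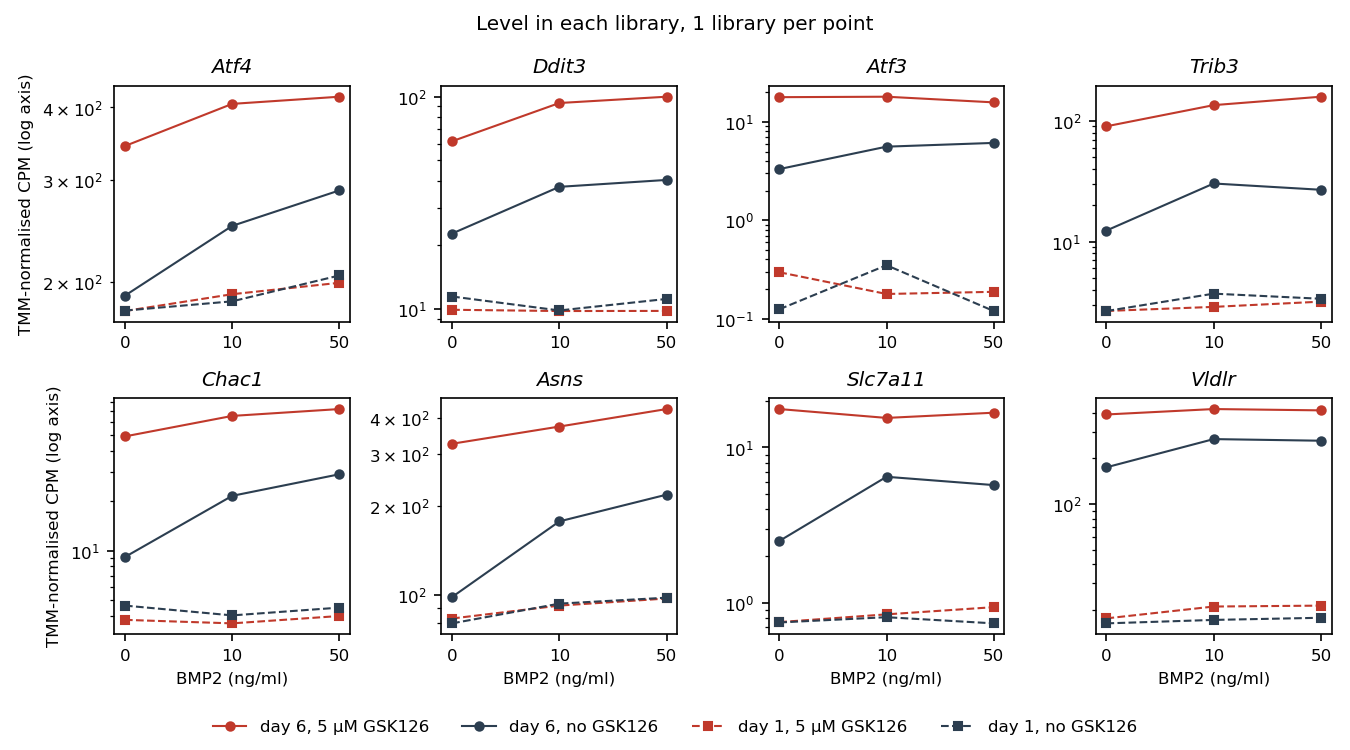
TMM-normalised CPM (log axis) of 8 genes against BMP2 dose, 1 library per point; solid lines are day 6, dashed lines day 1, red is 5 µM GSK126 and dark blue none. The red day 6 line lies above the dark blue one in every panel. Both day 1 lines lie close together except for Atf3, where they cross at levels of 0.120 to 0.349 CPM.

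The promoters of these genes were read for the C/EBP-ATF response element. The set was chosen by name as genes of the ATF4 pathway, so a larger share with this element may follow from that choice. Windows from 250 bases before to 50 bases after the start site were available from RefSeq (GRCm38.p6) for 36 of the 42 genes. The element's core, TGATGNAA or on the other strand TTNCATCA, occurred in 15 of the 36, against 4.51% of 27025 genes and 3.97% of 32851 windows. The letters CCACG, or CGTGG on the other strand, which are the 3′ portion of the ER stress element and not the whole element, occurred in 27 of the 36, against 35.5% of all genes. A match is a description of letters and no site of binding. Any part of the element in the rise was not tested. The stretches below show the cores in capitals, 5′ to 3′ on the gene's own strand, for 4 of the genes with the highest changes that hold one and for 4 of other roles.
Trib3 (chr2:152344029-152344056, minus strand): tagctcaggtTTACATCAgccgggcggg
Chac1 (chr2:119351029-119351076, plus strand): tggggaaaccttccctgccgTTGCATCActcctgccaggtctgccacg
Atf3 (chr1:191183416-191183463, minus strand): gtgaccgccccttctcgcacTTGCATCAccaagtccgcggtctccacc
Slc7a11 (chr3:50443652-50443699, minus strand): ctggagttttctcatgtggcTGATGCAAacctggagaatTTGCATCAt
Asns (chr6:7693210-7693252, minus strand): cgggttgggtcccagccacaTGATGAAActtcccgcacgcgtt
Vldlr (chr19:27216800-27216847, plus strand): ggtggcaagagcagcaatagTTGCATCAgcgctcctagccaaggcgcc
Aars (chr8:111033710-111033757, plus strand): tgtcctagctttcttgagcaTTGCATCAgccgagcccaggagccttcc
Fgf21 (chr7:45615602-45615649, minus strand): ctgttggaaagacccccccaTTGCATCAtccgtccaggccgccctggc
The core of Trib3 begins 15 bases into the transcribed window, that of Chac1 193 bases before the start site and those of Atf3 and Asns 110 and 23 bases before it. Slc7a11 holds 2 cores in opposite directions within 1 stretch. Fgf21 holds the same 8 letters as Chac1 and Atf3, although no library held more than 25 read pairs of its RNA. The other genes with a core were Nupr1, Herpud1, Pycr1, Gars, Iars, Tars and Yars, while Ddit3, Slc6a9 and Sesn2, all higher with GSK126, had none in the window.

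On day 1, the same comparison of GSK126 with no GSK126 called 0 of the 40 genes and 0.0% of all genes. No gene of the set reached an unadjusted p under 0.05, against 755 of all genes, and DESeq2 and limma-voom also called 0 of the 40. Fold changes ran from -0.21 ± 0.20 for Chac1 to 0.22 ± 0.10 for Vldlr on the log2 scale, with a median of -0.01. Atf4 had 178, 191 and 199 CPM with GSK126 at 0, 10 and 50 ng/ml BMP2, against 179, 185 and 205 CPM without it. Trib3 had 2.67, 2.88 and 3.19 CPM with GSK126, against 2.66, 3.71 and 3.37 CPM without it. Asns had 83.1, 91.9 and 97.1 CPM with GSK126, against 80.0, 93.3 and 97.8 CPM without it. The groups of these 3 genes overlapped. Groups did not overlap for Atf5 and Slc3a2, which were higher with GSK126 (8.07% of all genes), and Chac1, which was lower (6.88%). A fit to the 6 libraries of day 1 alone called 7 genes of the 37 it tested, 4 higher and 3 lower. It called 17.5% of all genes. These 7 lay between -0.10 (Iars) and 0.22 (Vldlr). The 0 calls in the fit to 12 libraries thus rest in part on a spread estimated together with day 6.

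The difference between the GSK126 effects on day 6 and day 1 was tested directly. It was called for 35 of the 40 genes, 34 with a higher value on day 6 and Ddit4 with a lower one, against 10.5% of all genes (3.94% higher, 6.52% lower). The largest differences were those of Trib3 (2.68 ± 0.20), Slc7a3 (2.47 ± 0.55) and Chac1 (1.98 ± 0.28). Slc7a3 had to be high on day 6 with GSK126 to pass the filter. Atf4 differed by 0.70 ± 0.09 (adjusted p = 0.0052). The test did not call Atf3 (1.67 ± 0.58), Slc7a11 (1.71 ± 0.44), Nupr1 (1.15 ± 0.32), Herpud1 (0.36 ± 0.12) and Psat1 (0.36 ± 0.15). Leaving out a library of day 1 lowered this number to between 9 and 13, and leaving out either day 6 library at 10 ng/ml lowered it to 22. Atf4, Cebpg, Chac1, Ddit3, Phgdh, Sars, Slc3a2, Slc7a5 and Trib3 were called in all 20 alternative fits.

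**Figure D3:**
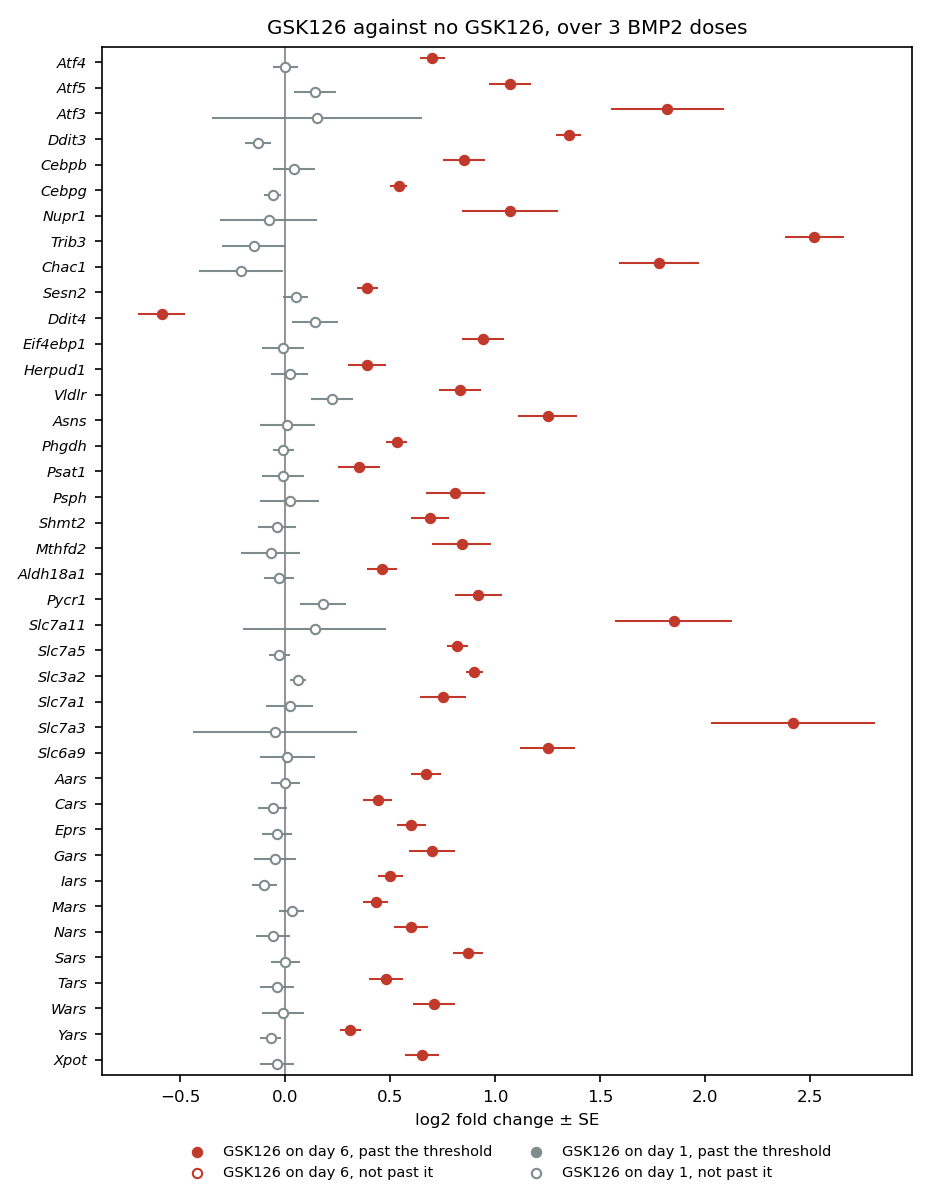
Log2 fold change with its standard error for GSK126 against no GSK126 in the 40 genes, on day 6 (red) and day 1 (grey), from the fit to 12 libraries; filled points passed the adjusted threshold. Day 6 values of 39 genes lie right of 0 with Trib3 farthest at 2.52, Ddit4 lies at -0.59, and all 40 day 1 values are open and near 0.

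The next comparison asked what BMP2 changed on day 6, taking the mean of both doses against none over both GSK126 levels. Of the 40 genes 23 rose and 3 fell, against 28.7% of all genes called (13.3% higher, 15.5% lower). The median of the set was 0.37 on the log2 scale, against 0 over all genes. BMP2 libraries lay entirely above those without BMP2 for 0 of the 40 genes (9.61% of all genes) and entirely below for Ddit4 (11.2%). These groups each hold libraries with and without GSK126. In 36 of the 40 genes every day 6 library with GSK126 lay above every one without it. For these 36 neither separation by BMP2 could occur, so the 0 says nothing about BMP2 there. With scaling by library size alone, the median of all genes moved by -0.147, and 17 genes of the set were called higher and 3 lower, against 807 higher and 3412 lower over all genes. A fit to day 6 alone called 3 genes higher and Ddit4 lower, where 8.79% of all genes were called. Without the day 6 vehicle library, or without that of 10 ng/ml BMP2 alone, 17 of the 40 were called.

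Of the 7 transcription factors 6 rose with BMP2. Nupr1 had the largest value of the set, 1.21 ± 0.25 (adjusted p = 0.013). With BMP2 at 10 and 50 ng/ml it had 216 and 204 CPM in GSK126 libraries, against 128 CPM with GSK126 alone. Without GSK126 it had 102 and 159 CPM with BMP2, against 37.5 CPM in vehicle. The ratio was higher in the libraries without GSK126, but the interaction tested further on was not called (-1.09 ± 0.37, adjusted p = 0.46). The BMP2 call was lost without the day 6 library of GSK126 and 10 ng/ml. Ddit3 rose by 0.71 ± 0.06 (adjusted p = 0.00047) and Atf4 by 0.38 ± 0.07 (adjusted p = 0.0076), while Atf3 (0.32 ± 0.28) did not pass. Ddit3 was called in all 21 alternative fits. Among the effectors Trib3 rose by 0.94 ± 0.14 and Chac1 by 0.92 ± 0.20, and Sesn2 (-0.11 ± 0.06) did not pass. Ddit4 fell by 0.89 on the log2 scale (SE 0.11, adjusted p = 0.0017).

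The enzymes split. Asns (0.63 ± 0.15) and Pycr1 (0.53 ± 0.11) rose, Phgdh fell (-0.23 ± 0.05), and 5 of 8 did not pass, among them Psat1 at 0.35 ± 0.11. Phgdh was lower with BMP2 at either dose, with and without GSK126. Of the 6 transporters, Slc6a9 (0.73 ± 0.14), Slc7a1 (0.49 ± 0.12) and Slc3a2 (0.39 ± 0.05) rose, and Slc7a5 fell (-0.23 ± 0.06). The Slc7a5 call held in 12 of 21 alternatives and was lost, among others, in the fit to day 6 alone. Of 12 genes of tRNA charging and export 8 rose, led by Gars (0.52 ± 0.11), Sars (0.48 ± 0.07) and Xpot (0.46 ± 0.08). The calls of these 3 held in 19, 20 and 20 of 21 alternatives. The other 5 were less stable: Mars held in 7, Nars in 8, Iars and Wars in 10 each and Aars in 11 of the 21, and all 5 were lost without any 1 library of day 1. Vldlr (0.34 ± 0.11, adjusted p = 0.053) did not pass.

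Between the doses, 50 ng/ml differed from 10 ng/ml on day 6 for 1 of the 40 genes, against 11.8% of all genes (5.33% higher, 6.47% lower). Psat1 was higher at 50 ng/ml by 0.52 ± 0.13 (adjusted p = 0.043), with 314 CPM at 50 ng/ml without GSK126 against 182 at 10. With GSK126 the gap was smaller, at 313 against 265 CPM. This call was lost without any 1 library of day 1 and without either library at 10 ng/ml, while leaving out the day 6 vehicle or GSK126 library raised the count of the set to 9. It was 8 without the day 6 library of GSK126 and 50 ng/ml and 3 without that of 50 ng/ml alone.

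On day 1 BMP2 raised Slc7a1 and lowered Ddit4, and no other gene of the set was called, against 3.66% of all genes (1.8% higher, 1.86% lower). Slc7a1 had 184 and 226 CPM at 10 and 50 ng/ml with GSK126, against 122 CPM with GSK126 alone, and 183 and 224 CPM at these doses without GSK126, against 119.6 CPM in vehicle. It rose with dose alike in both series, and the fitted change was 0.75 ± 0.12 (adjusted p = 0.025). Ddit4 had 21.4 and 18.0 CPM at 10 and 50 ng/ml with GSK126, against 30.2 CPM with GSK126 alone, and 18.6 and 16.9 CPM without GSK126, against 27.6 CPM in vehicle. Its change was -0.63 ± 0.11 (adjusted p = 0.033). Both calls were lost without any 1 of the 6 libraries of day 1, where 0 genes of the set were called. Without the day 6 vehicle or GSK126 library 13 were called, and without either day 6 library at 50 ng/ml 4 were called. A fit to day 1 alone called 19 of 37 genes higher and 5 lower, where 40.6% of all genes were called. There Slc7a1 kept its change of 0.75, with adjusted p = 4.4e-10 in place of 0.025. Limma-voom with 1 weight per day called 21 of the 40, where 33.6% of all genes were called. The few calls on day 1 in the fit to 12 libraries thus rest in part on its shared spread. The BMP2 effect was larger on day 6 than on day 1 for 5 genes, against 9.14% of all genes (3.82% higher, 5.33% lower). These were Slc6a9 (0.88 ± 0.19), Ddit3 (0.79 ± 0.09), Sars (0.46 ± 0.10), Slc3a2 (0.39 ± 0.07) and Cebpg (0.33 ± 0.06). Leaving out a library of day 1 left 0 or 1 of them called, and leaving out the day 6 library of GSK126 alone gave 23 called genes. Leaving out that of GSK126 with 50 ng/ml gave 12, that of vehicle 8 and that of 10 ng/ml alone 3.

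**Figure D4:**
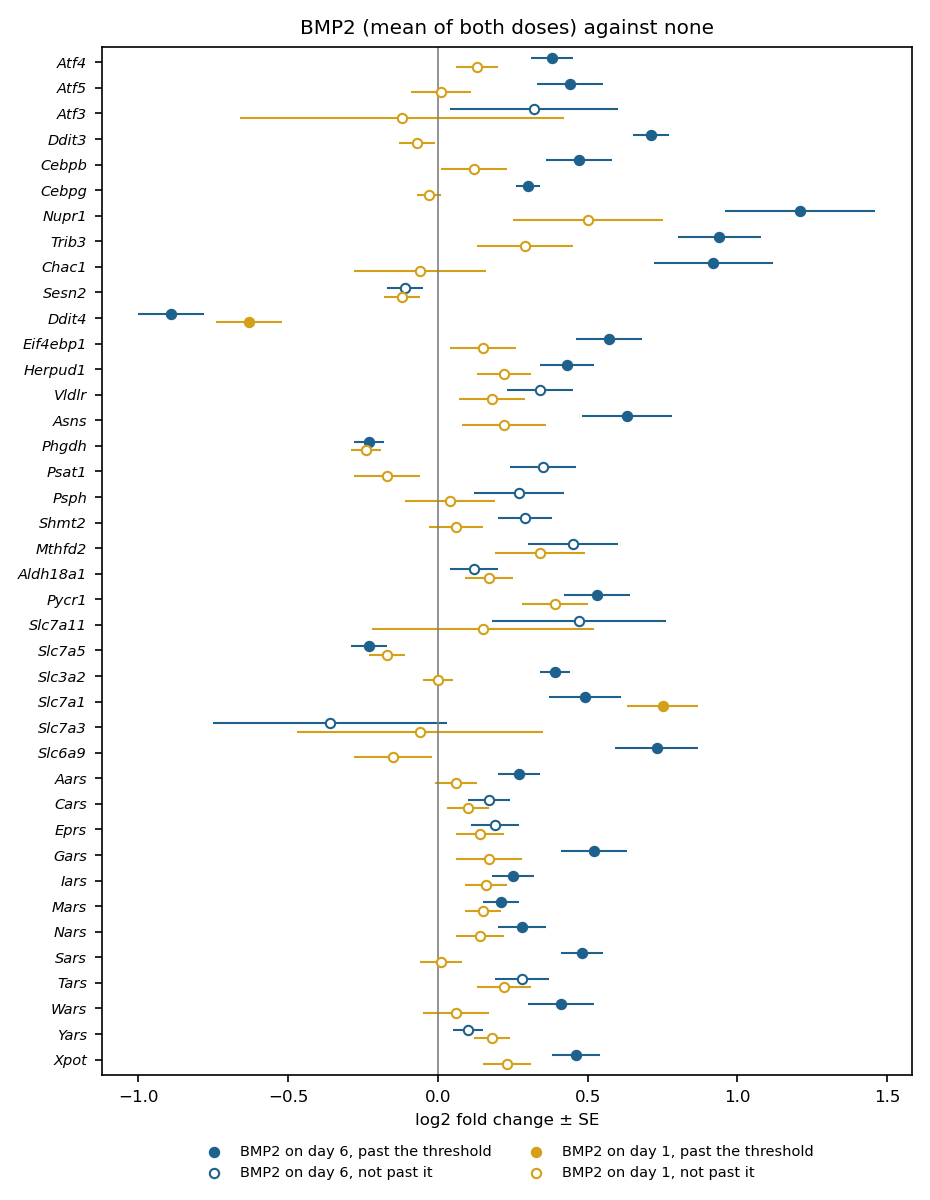
Log2 fold change with its standard error for BMP2 (mean of 10 and 50 ng/ml) against none in the 40 genes, on day 6 (blue) and day 1 (yellow), from the fit to 12 libraries; filled points passed the adjusted threshold. On day 6 filled points lie right of 0 for 23 genes, and Ddit4 lies left of 0 on both days, at -0.89 and -0.63.

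The study also combined the agents. Taken library by library on day 6, the median log2 ratio of the 40 genes with GSK126 over without it was 0.87 at 0 ng/ml BMP2, 0.63 at 10 and 0.58 at 50, above 0 for 39, 39 and 38 genes. The median ratio of 10 and 50 ng/ml BMP2 over none was 0.12 and 0.26 in GSK126 libraries and 0.44 and 0.59 in libraries without it. These ratios share libraries. The interaction on day 6, the GSK126 effect with BMP2 minus that without it, was tested in a fit with 1 mean for both doses and called 0 of the 40 genes and 0.0% of all genes. In that fit the doses stand in for replicates, so a true difference between doses counts as error. The effect without BMP2 rests on 1 library with GSK126 and 1 vehicle library, which the values of all genes share. At an unadjusted p under 0.05 there were 14 genes of the set and 1125 of all genes (9.33%). Values were below 0 for 35 of the 40, with a median of -0.36, against 0 over all genes. Slc7a11 had the lowest (-1.42 ± 0.22, adjusted p = 0.23), with GSK126 ratios of 2.39-fold and 2.92-fold at 10 and 50 ng/ml, against 7.07-fold at 0. Vldlr stood at -0.50 ± 0.11 (adjusted p = 0.3), with 1.58-fold and 1.59-fold at 10 and 50 ng/ml, against 2.23-fold at 0. DESeq2 called these 2 genes, at -1.41 (adjusted p = 0.0012) and -0.49 (adjusted p = 0.01), and no other gene of the set. Slc7a3 (1.54 ± 0.67), Wars (0.32 ± 0.19), Slc3a2 (0.11 ± 0.17), Sesn2 (0.06 ± 0.13) and Phgdh (0.04 ± 0.17) lay above 0 and did not pass.

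Between the days, over all treatments, 37 of the 40 genes were higher on day 6 and 0 lower, against 78.0% of all genes called, 40.5% higher and 37.5% lower. This contrast averages libraries with and without GSK126, so it includes the rise with GSK126 on day 6. How much of the difference between the days that rise makes up was not tested. The median of the set was 1.01, against 0.03 over all genes. Every library of day 6 lay above every library of day 1 for 26 of the 40 genes (22.1% of all genes). For these 26 the vehicle library was thus also higher on day 6. Shmt2 and Gars were called higher over all treatments but were lower on day 6 in vehicle. They had 82.44 and 197.5 CPM in the day 6 vehicle library, against 103.1 and 212.1 CPM in that of day 1. Atf3 had 5 to 16 read pairs per library on day 1, and its difference of 5.49 ± 0.26 was the largest of the set. Trib3 (4.09 ± 0.11), Vldlr (4.06 ± 0.08), Slc7a11 (3.47 ± 0.22), Chac1 (3.04 ± 0.14) and Nupr1 (2.90 ± 0.17) followed. Atf3, Slc7a11 and Slc7a3 passed the filter only through libraries of day 6. Their rises were needed for them to be tested and carry no weight of their own in these counts and ranks. Vldlr had 174 to 422 CPM on day 6, against 16.3 to 21.3 CPM on day 1, with or without GSK126. Atf4 itself rose by only 0.69 ± 0.05, and its day 6 vehicle library, at 189.5 CPM, lay within the day 1 range of 178 to 205 CPM. The 12 genes of tRNA charging and export had a median of 0.61, the lowest of the 5 roles with more than 1 tested gene. Cebpb (0.03 ± 0.07), Wars (0.06 ± 0.07) and Slc7a1 (-0.09 ± 0.08) did not pass. Scaling by library size alone moved the median of all genes by -0.179, called 36 genes of the set higher and 2 lower and turned the sign of Cebpb to -0.18.

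A few genes had calls of mixed direction in these comparisons, which share libraries, so their log2 values are set side by side as a description. Phgdh was at 0.53 ± 0.05 with GSK126 on day 6, at -0.23 ± 0.05 with BMP2 on day 6 and at 0.94 ± 0.04 on day 6 against day 1. Slc7a5 was at 0.82 ± 0.05, -0.23 ± 0.06 and 1.34 ± 0.04 in the same comparisons. Ddit4 was at -0.59 ± 0.11, -0.89 ± 0.11 and 1.62 ± 0.08.

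Other genes of the pathway and its neighbours, from lists chosen with earlier results known, give the surroundings. Among 14 genes for the eIF2 kinases, phosphatases, eIF2 subunits and eIF2B, 3 rose with GSK126 on day 6 and 1 fell. Ppp1r15a, the stress-induced subunit of the phosphatase that reverses eIF2 phosphorylation, had 25.9, 33.3 and 40.8 CPM with GSK126, against 15.1, 17.5 and 20.1 CPM without it, and rose by 0.91 ± 0.06. Eif2ak2, the double-stranded RNA-sensing kinase PKR, fell (-0.44 ± 0.08), and the eIF2 and eIF2B subunit genes Eif2s2 and Eif2b2 rose by 0.52 ± 0.07 and 0.36 ± 0.05. Of 12 other genes of cytosolic tRNA synthetases and their scaffold, 1 rose, Lars (0.64 ± 0.06), and 1 fell, Aimp2 (-0.25 ± 0.07). The median of these 12 was 0.04. Of 17 mitochondrial synthetase genes 3 rose and 2 fell, with a median of 0.04. Over all genes 14.3% rose and 14.0% fell in this comparison, so the counts of the eIF2 and mitochondrial lists lay near the background.

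Of 18 other amino acid and one-carbon enzymes 5 rose and 5 fell with GSK126 on day 6. Cth, which makes cysteine from cystathionine, had 19.4, 12.2 and 9.20 CPM with GSK126, against 7.32, 4.93 and 2.37 CPM without it, and rose by 1.54 ± 0.16. The mitochondrial one-carbon gene Aldh1l2 rose by 1.23 ± 0.16, the alanine aminotransferase gene Gpt2 by 1.12 ± 0.12 and the aspartate aminotransferase gene Got1 by 0.60 ± 0.06. Of 14 other amino acid transporters 6 rose and 0 fell, with the glutamine transporter gene Slc1a5 at 0.73 ± 0.05 and a median of 0.25. Of 20 endoplasmic reticulum chaperone and disposal genes of the ATF6 and XBP1 branches 9 rose and 0 fell. Their median was 0.20, with Atf6 (0.79 ± 0.07) and the sensor gene Ern1 (0.68 ± 0.08) highest. Of 11 p53 targets 1 rose, Gdf15 (0.76 ± 0.15), also a stress-response gene, and 2 fell. On day 1 GSK126 called 0 genes in each of these 7 lists.

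With BMP2 on day 6, where 13.3% of all genes rose and 15.5% fell, the eIF2 list had 4 higher and 1 lower, the other cytosolic synthetases 0 and 0, and the mitochondrial ones 1 and 1. The other enzymes had 2 higher and 4 lower. Cth fell with BMP2 (-0.97 ± 0.16) and Aldh1l2 rose (0.65 ± 0.17). The other transporters had 6 higher and 2 lower, with Slc6a6 at 0.82 ± 0.13 and Slc7a2 at -0.81 ± 0.07, the chaperone list 5 higher and 0 lower, and the p53 targets 2 higher and 3 lower. Between the days, where 40.5% of all genes rose and 37.5% fell, rises and falls were 4 and 4 in the eIF2 list, 4 and 4 in the other cytosolic synthetases, 7 and 8 in the mitochondrial ones and 7 and 10 in the other enzymes. They were 8 and 3 in the other transporters, 8 and 8 in the chaperone list and 9 and 1 in the p53 targets. Nothing particular to these lists is read from these counts.

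**Figure D5:**
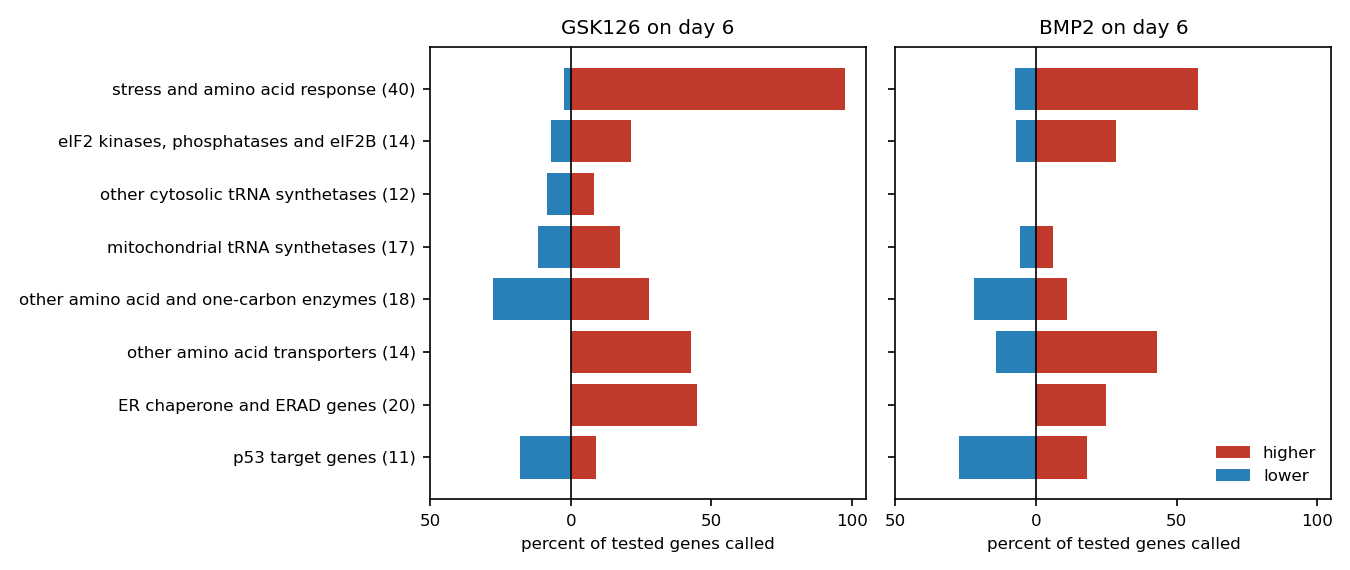
Percent of tested genes called higher (red, right) and lower (blue, left) with GSK126 and with BMP2 on day 6, for the 40 stress and amino acid response genes and 7 companion lists; numbers in brackets are genes tested. With GSK126 the first bar holds 39 higher and 1 lower, and the other cytosolic synthetases hold 1 and 1.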

How the data were processed

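Libraries from 12 conditions were compared. The authors deposited a single table holding, for each library, counts and RPKM. The submitters' processing notes name the build mm10 and the tools bcl2fastq, TopHat2 2.0.6 and HTSeq. The sources used here give neither the strand setting nor the annotation, and reads of overlapping genes cannot be told apart. This touches Ddit3 with Mars (68 shared exon bases), Cebpb with Tmem189, Slc6a9 with Ccdc24, Aars with Exosc6 and Psph with Cct6a. All 195176 deposited counts above 0 were even, which fits a count of 1 per mate; read pairs are counts halved. The deposited RPKM values, scaled by length by the authors, were used only for levels between genes.

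A minimum of 1 CPM in 2 libraries left 12056 genes, which were scaled by TMM and tested by quasi-likelihood in edgeR 4.0.16 (R 4.3.3), with p-values adjusted by Benjamini-Hochberg and a threshold of 0.05. The model had day and, inside each day, GSK126 and BMP2 dose as a factor, with 8 coefficients and 4 residual degrees of freedom. The interaction model crossed day, GSK126 and presence of BMP2, so its residual spread is the difference between the BMP2 doses. No label states separate cultures. The p-values set effects against the spread that the first model, in which GSK126 and BMP2 effects add up, leaves within each day. With 1 library per condition, that spread mixes library-to-library differences, which may be technical, with any interaction of GSK126 and BMP2 dose. The model makes a single estimate of it over both days. Fitted alone, day 1 gave more calls for GSK126 and BMP2 than this model, and day 6 fewer. A larger spread on day 6 would give this, although the loss on day 6 may also follow from fewer degrees of freedom. With such a difference, the shared estimate is lenient for day 6 and strict for day 1. Numbers of calls on day 6 and day 1 are thus not on an equal footing. Whether the spreads differ was not tested. The alternatives tried were size factors and the Wald test of DESeq2 1.42.0, library size scaling, limma-voom (limma 3.58.1), halved counts, other filters, each day fitted alone, and leaving out 1 library at a time. The scripts were tested on simulated data. The members and lists were chosen with earlier results of these data known. Named were a panel of 16 genes and, per comparison, up to 6 called rises and 6 called falls of the set, plus other members by fold change and up to 4 called genes per companion list. Floors of 3 pairs cover counting error only.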

Additional observations from a re-analysis of the deposited data

Results flagged for a closer look

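A direct test of day 6 against day 1 found unequal GSK126 effects in these named genes, each given as the log2 effect on day 6 minus that on day 1. Among transcription factors the values were 0.70 for Atf4, 1.49 for Ddit3 and 0.81 for Cebpb. Among effectors they were 2.68 for Trib3, 1.98 for Chac1, 0.34 for Sesn2 and -0.72 for Ddit4. Vldlr had 0.60, Asns 1.25 and Phgdh 0.54. Slc7a3, which passed the filter only through day 6 libraries with GSK126, had 2.47, Slc6a9 1.23, Aars 0.66 and Wars 0.72. Of the genes named here, only Atf4, Ddit3, Trib3, Chac1 and Phgdh were called in every alternative fit.

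The BMP2 effect differed between the days in the same way for Ddit3 (0.79), Cebpg (0.33), Slc3a2 (0.39), Slc6a9 (0.88) and Sars (0.46). Most or all of these BMP2 calls were lost when any 1 library of day 1 was left out.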

How the results depend on the processing

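No paired analysis was possible because the labels give no replicate numbers to use as a block; the fit already compares libraries of the same day and BMP2 dose. Of the comparisons, GSK126 on day 6 (28 to 40 of the set called) and day 6 against day 1 (36 to 38) stayed within 1.5 times their counts under all alternatives run. Leaving out 1 library at a time gave 37 to 38 called genes for day, 37 to 40 for GSK126 on day 6, 0 for GSK126 on day 1, 9 to 39 for the GSK126 difference between days, 17 to 34 for BMP2 on day 6, 0 to 13 for BMP2 on day 1, 0 to 23 for the BMP2 difference, 0 to 9 for 50 against 10 ng/ml and 0 to 1 for the interaction, whose fit could not be made without the day 6 vehicle or GSK126 library. Library size alone gave 2 for the BMP2 difference and 3 for the doses. DESeq2 gave 4 for BMP2 on day 1, 9 for the BMP2 difference, 3 for the doses and 2 for the interaction. Limma-voom with 1 weight per day gave 21 for BMP2 on day 1 and 0 for the doses, and a filter at 5 CPM gave 2 for the doses. Day 6 alone gave 4 for BMP2 and 0 for the doses; day 1 alone gave 7 for GSK126 and 24 for BMP2, with fewer libraries in each fit. Reversed were Cebpb between days with library size alone (-0.18) and Wars for 50 against 10 ng/ml, from -0.25 without the day 6 library of GSK126 and 50 ng/ml to 0.27 without that of 50 ng/ml alone; the cause was not tested. Depth limits Fgf21 and Stc2.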
